A study of Mus musculus with 18 samples.

Results

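Glutathione peroxidases reduce hydrogen peroxide and lipid hydroperoxides with glutathione, and thioredoxin reductases keep thioredoxin reduced for the peroxiredoxins. Most of these enzymes carry selenocysteine, the selenium analogue of cysteine, which is read from a UGA codon that would otherwise end translation; the reading needs a SECIS stem-loop in the mRNA and a dedicated set of factors. Gpx3 encodes the secreted, extracellular peroxidase, and Selenop encodes the secreted protein that carries selenium between tissues.

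The genes described here are 9 of the 52636 gene identifiers counted in each library: Gpx1, Gpx2, Gpx3, Gpx4, Gpx7, Gpx8, Selenop, Txnrd1 and Txnrd2. They were chosen by symbol, with their levels in these libraries already known, so the differences between populations given for them are descriptions without a test. The 18 libraries came from mammary epithelial cells of 6 nulliparous mice aged 12 weeks, in samples numbered 1 to 6. All groups share the MMTV-Cre genotype, in which a mouse mammary tumour virus promoter drives Cre recombinase, and no treatment; there was no Cre-negative group. Each number was sorted into 3 populations with 6 libraries each. Hormone-sensing luminal cells (HSL) were CD49f low and CD61 negative, alveolar progenitors (AP) were CD49f low and CD61 positive, and basal cells were CD49f high and CD61 positive.

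The codon that sets the family apart is shown first because it separates the selenium-dependent members from their relatives. Each line gives coding sequence from the GENCODE M21 annotation of GRCm38, read 5′ to 3′ on the coding strand, with the active-site codon in capitals and for selenoprotein P the first selenocysteine codon.
Gpx1: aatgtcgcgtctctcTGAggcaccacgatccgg
Gpx2: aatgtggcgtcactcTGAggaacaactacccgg
Gpx3: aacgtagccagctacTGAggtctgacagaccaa
Gpx4: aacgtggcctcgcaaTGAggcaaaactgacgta
Gpx7: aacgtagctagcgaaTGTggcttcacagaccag
Gpx8: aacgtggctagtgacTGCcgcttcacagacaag
Selenop: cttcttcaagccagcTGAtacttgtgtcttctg
Txnrd1: ctccagtctggctgcTGAggt
Txnrd2: actgtgactggttgcTGAggc

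The TGA of Gpx3 is codon 73, in exon 2, at chr11:54907256-54907258. Gpx7 and Gpx8 carry a cysteine codon (TGT and TGC) in its place and have no TGA in frame, so they are peroxidases without selenium. Selenop has 10 TGA codons in frame, of which codon 59 is the first. In the thioredoxin reductases the codon stands next to the end of the protein, at codon 498 of 499 in Txnrd1 and codon 526 of 527 in Txnrd2. This sequence feature did not follow the levels below: Gpx3 and Selenop, both selenium-dependent and secreted, had their highest levels in opposite populations.

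In GRCm38 coordinates Gpx3 (ENSMUSG00000018339) lies at chr11:54902453-54910377 on the plus strand. Gpx1 lies at chr9:108338903-108340343, Gpx4 at chr10:80047166-80056439, Selenop at chr15:3268547-3280508, Txnrd1 at chr10:82833951-82897712 and Txnrd2 at chr16:18426384-18479073, all on the plus strand. Gpx7 lies at chr4:108400390-108406961, Gpx2 at chr12:76792333-76795554 and Gpx8 at chr13:113042753-113046410, on the minus strand. Of the 9 genes, 7 passed the filter on low counts. Gpx2 and Gpx8 are listed at 0 in all 18 libraries. Both share their whole span with another gene, Gpx2 with Fntb and Gpx8 with Cdc20b, and of 1319 protein-coding genes in that position 1149 are at 0 in every library, so their 0 says nothing about expression.

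Total counts per library were 26516293–52404937 in HSL, 37391691–62505465 in AP and 29899462–91095830 in basal libraries. The populations followed their markers: the 5 hormone-sensing markers (Esr1, Pgr, Prlr, Foxa1, Ly6a) summed to 2249–5783 CPM (counts scaled per library with TMM factors) in HSL, 272–1609 in AP and 111–326 in basal libraries. The libraries of sample 1 stood apart on the third principal component (7.84% of the variance), with scores of 75.5 to 97.2 against -61.8 to 27.4 in the other 15. The 5 basal markers (Krt5, Krt14, Trp63, Acta2, Oxtr) summed to 29.8–153 CPM in HSL, 85.6–270 in AP and 21680–36870 in basal libraries. The 4 alveolar progenitor markers (Elf5, Kit, Cd14, Aldh1a3) summed to 154–549, 2205–5742 and 102–190 CPM in the same order. Markers of other cell types were present in all populations and are given beside genes with a like difference between populations. In these bulk libraries, fewer cells of a type and less RNA per cell cannot be told apart. Nothing in the labels says how the libraries of a number were prepared together, and the p-values below measure the spread between these samples.

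Gpx3 had the highest count of all genes in 5 of the 6 HSL libraries. In samples 1 to 6 it stood at 8292, 34098, 30196, 40908, 12345 and 29377 CPM in HSL, at 847, 9882, 6737, 6406, 2226 and 3850 CPM in AP and at 256, 873, 631, 1902, 355 and 595 CPM in basal libraries. It had rank 3 in the HSL library of sample 5, and in HSL libraries it took 0.972 to 3.55% of all counts, against 0.0991 to 1.07% in AP and 0.0267 to 0.176% in basal libraries. HSL libraries averaged 25869 ± 12781 CPM, AP libraries 4991 ± 3319 CPM and basal libraries 769 ± 596 CPM (SD, n = 6 each).

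The order was the same in each sample number. The HSL level was 3.45 to 9.78 times the AP level and 21.5 to 49.3 times the basal level, and the AP level was 3.31 to 11.3 times the basal level, in 6 of 6 numbers. Across numbers the HSL and basal libraries did not overlap, whereas AP overlapped with both of the others, because the spread within a population was wide: the highest library was 4.93 times the lowest in HSL, 11.7 times in AP and 7.43 times in basal. The log2 fold change was 5.07 ± 0.65 for HSL against basal, 2.37 ± 0.58 for HSL against AP and 2.70 ± 0.58 for AP against basal (standard errors of the model over all genes). This model has no block for sample number. With such a block the values were 5.15 ± 0.27, 2.52 ± 0.24 and 2.63 ± 0.25. Without sample 1, and with no block, the log2 fold changes were 5.06, 2.31 and 2.74. The file identifiers fall into 2 runs, samples 1 to 3 and samples 4 to 6, although no label records a batch. In these runs HSL against basal was 5.31 and 4.85, HSL against AP 1.99 and 2.69, and AP against basal 3.32 and 2.16.

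**Figure D1:**
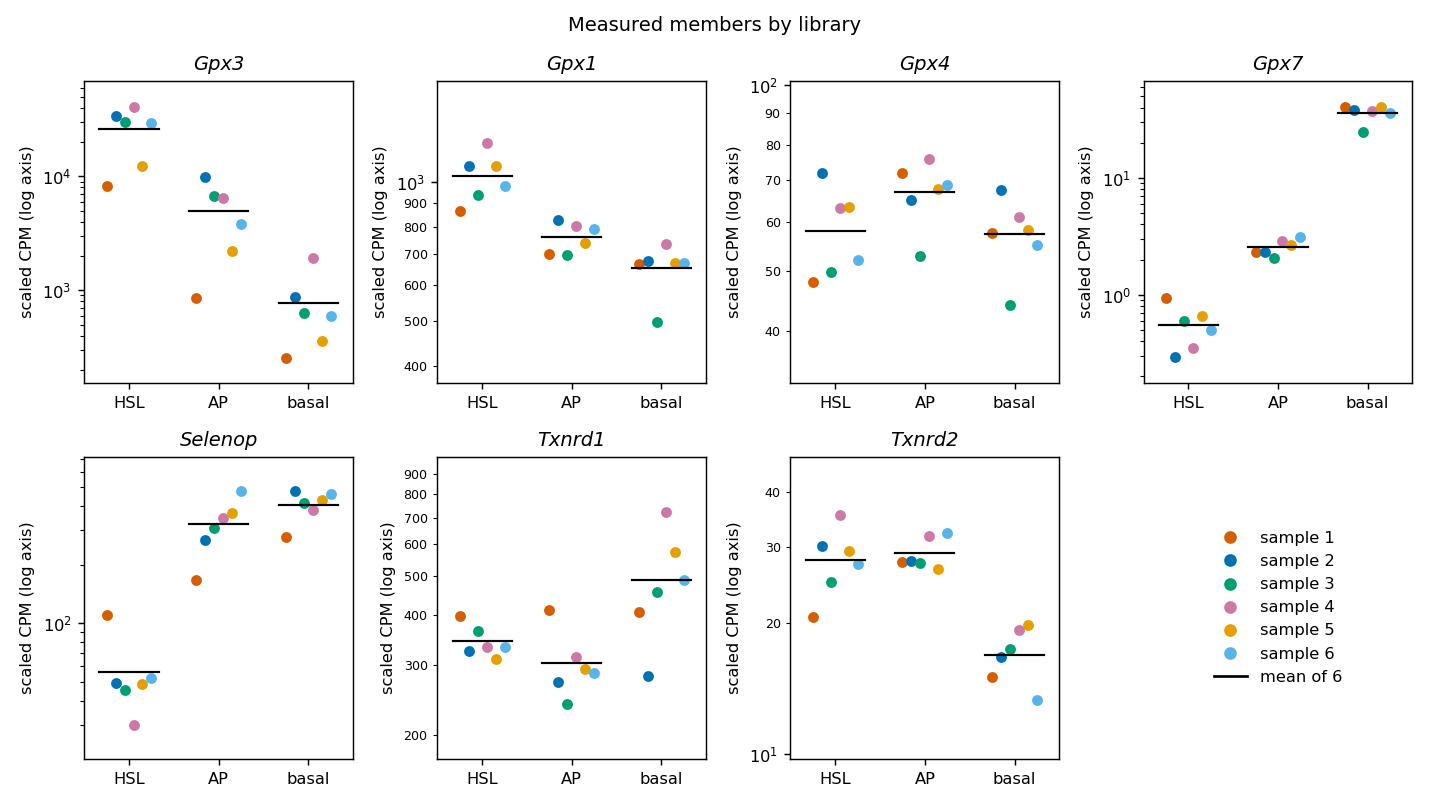
Scaled CPM (log axis) of the 7 measured genes in HSL, AP and basal libraries, 6 each, coloured by sample number, with the mean as a black line. Gpx3 is at 8292–40908 in HSL and 256–1902 in basal libraries, whereas Gpx7 is at 0.290–0.934 in HSL and 24.7–40.6 in basal libraries.

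Samples 1 and 5 had the lowest Gpx3 in every population. In sample 1 the hormone-sensing marker sum was also the lowest of each population, at 2249 CPM in HSL, 272 in AP and 111 in basal libraries. In sample 5 it was not, at 5480, 1025 and 211 CPM. The part of this in the Gpx3 level was not tested. Over the 6 numbers, the HSL and basal libraries had the same order of Gpx3 (Spearman's rho = 1, Pearson's r = 0.90 on log2 CPM). This is a description with no test, since Gpx3 was chosen from its levels in these libraries and the comparison after the values were seen. Without samples 1 and 5, which lie farthest from the median, r was 0.99. For HSL and AP libraries r was 0.94 (rho = 0.83) and 0.40 without samples 1 and 5, so this relation rests on them. For AP and basal libraries r was 0.81 (rho = 0.83) and 0.29 without them. Libraries of a number moved together for many genes: the median r over all genes was 0.32, 0.46 and 0.56 for the 3 pairs, and 5.53, 4.81 and 25.2% of genes had an r at least as high as that of Gpx3.

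The markers of hormone-sensing cells moved with Gpx3 in the AP libraries. Gpx3 in AP was 10.2, 29.0, 22.3, 15.7, 18.03 and 13.1% of its HSL level in samples 1 to 6, and the median of the 5 markers was 15.6, 30.6, 24.9, 19.4, 19.1 and 12.8%. The highest share was in sample 2 for both, whereas the lowest was in sample 1 for Gpx3 and in sample 6 for the markers. In basal libraries Gpx3 was at 2.03 to 4.65% of its HSL level and the marker median at 4.11 to 6.14%. Single markers there ran from 1.79% (Prlr in sample 6) to 28.2% (Ly6a in sample 1). Whether HSL cells or their RNA in the AP and basal libraries took part in the Gpx3 level there was not tested.

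**Figure D2:**
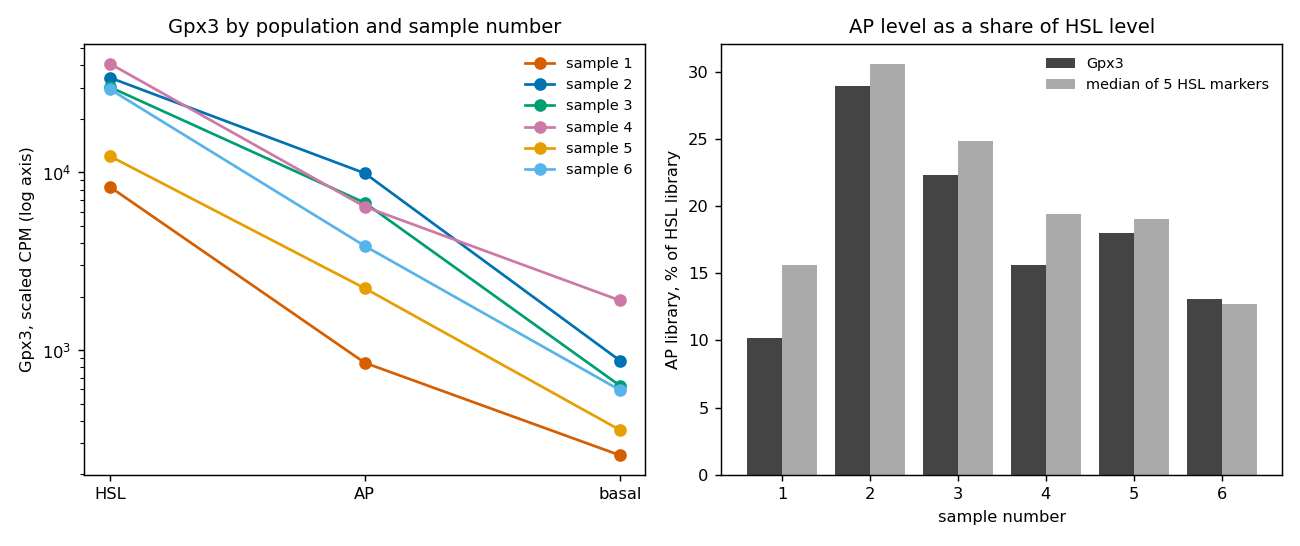
Left, Gpx3 in scaled CPM (log axis) in HSL, AP and basal libraries, with 1 line per sample number; right, the AP level as a percentage of the HSL level of the same number for Gpx3 and for the median of 5 hormone-sensing markers. Every line falls from left to right, and the pairs of bars stand at 10.2–29.0% for Gpx3 and 12.8–30.6% for the markers.

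Other genes had a profile close to that of Gpx3. Over the 18 libraries, among 5685 genes at 50 CPM or more in at least 1 population, Slc5a6, a transporter of biotin and pantothenate, had the highest correlation of log2 CPM with Gpx3 (Pearson's r = 0.984), followed by Gm6157 (0.983), the chemokine Cxcl15 (0.980), the choline transporter Slc44a4 (0.980) and the exchange factor Rasgrf1 (0.979). The lowest correlations were those of Josd2 (-0.964), a deubiquitinase, and Dek (-0.952), a chromatin protein. These values describe likeness only, since the libraries share populations and sample numbers.

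Gpx1, the cytosolic peroxidase, was second to Gpx3 in mean CPM in each population, although the libraries of the pair overlapped in basal cells. Gpx1 was highest in HSL. It averaged 1028 ± 126 CPM in HSL, 759 ± 56.03 CPM in AP and 651 ± 79.2 CPM in basal libraries. HSL libraries ran from 864 to 1216 CPM, all above the 697–826 CPM of AP and the 499–734 CPM of basal libraries, and AP and basal libraries overlapped. The log2 fold change was 0.66 ± 0.11 for HSL against basal, 0.44 ± 0.11 for HSL against AP and 0.22 ± 0.11 for AP against basal.

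Gpx4 encodes the enzyme that reduces phospholipid hydroperoxides within membranes. Its libraries overlapped in every pair of populations, at 58.1 ± 9.54 CPM in HSL, 67.0 ± 7.90 CPM in AP and 57.3 ± 7.79 CPM in basal libraries. These values are uncertain because a processed pseudogene, Gpx4-ps2, carries more counts than the gene, at 159 ± 28.2, 194 ± 22.6 and 159 ± 20.95 CPM in the same order. How reads that match both were assigned is not given in the sources used here. The sum of the pair, a comparison added after the values were seen, was 217 ± 37.7 CPM in HSL, 261 ± 30.3 CPM in AP and 216 ± 28.7 CPM in basal libraries, and its libraries overlapped as well, at 180–271.5, 206–292 and 168–254 CPM. Gpx4 itself had a log2 fold change of 0.02 ± 0.12 for HSL against basal, -0.21 ± 0.12 for HSL against AP and 0.23 ± 0.12 for AP against basal.

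Gpx7, a peroxidase of the endoplasmic reticulum without selenium, ran opposite to Gpx3. In samples 1 to 6 it was at 0.934, 0.290, 0.591, 0.352, 0.659 and 0.494 CPM in HSL (12 to 53 counts), at 2.30, 2.33, 2.06, 2.90, 2.67 and 3.11 CPM in AP and at 40.6, 38.5, 24.7, 37.6, 40.6 and 35.6 CPM in basal libraries. No population overlapped with another. The log2 fold change was -6.02 ± 0.27 for HSL against basal, -2.20 ± 0.24 for HSL against AP and -3.82 ± 0.24 for AP against basal.

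Selenop was low in HSL libraries and high in both other populations. In samples 1 to 6 it stood at 110, 49.2, 45.5, 30.0, 48.8 and 52.0 CPM in HSL, at 167, 267, 308, 348, 369 and 477 CPM in AP and at 276, 480, 416, 382, 427 and 460 CPM in basal libraries. All HSL libraries lay below all AP and basal libraries, which overlapped with each other. The log2 fold change was -2.86 ± 0.29 for HSL against basal, -2.53 ± 0.28 for HSL against AP and -0.33 ± 0.27 for AP against basal. Without sample 1, the highest HSL library, the HSL differences were -3.28 and -2.996.

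The marker sum of fibroblasts, which are known to express Selenop, was like Selenop lower in all HSL libraries than in the others. The 7 fibroblast markers summed to 40.3–111 CPM in HSL, 616–1578 CPM in AP and 691–1098 CPM in basal libraries. None was at 0 in all libraries of a population. Col3a1, a fibrillar collagen, averaged 29.9, 516 and 260 CPM in the 3 populations, and Dcn, a proteoglycan, 19.6, 150 and 414 CPM. Within HSL libraries the sums were 111, 73.4, 53.9, 40.3, 48.7 and 96.55 CPM in samples 1 to 6. Samples 1 and 6 were highest there and sample 4 lowest, as for Selenop. Within AP libraries they were 771, 1515, 1578, 1085, 616 and 730 CPM, an order unlike that of Selenop. Within basal libraries they were 801, 1098, 691, 884, 849 and 919 CPM. Sample 2 was highest there, as for Selenop, but the lowest was sample 3 and for Selenop sample 1. The 7 leukocyte markers summed to 3.23–73.0 CPM in HSL, with the highest value in sample 1, 7.61–41.6 CPM in AP and 29.3–214 CPM in basal libraries. The 5 basal markers were, like Gpx7, higher in all basal libraries (21680–36870 CPM) than in AP (85.6–270 CPM) and HSL libraries (29.8–153 CPM). Markers of 4 other cell types were, like Gpx7, higher in all basal libraries than in all HSL libraries. The 5 pericyte markers summed to 3.29–16.0 CPM in HSL, 13.1–24.1 CPM in AP and 64.7–91.7 CPM in basal libraries. The 6 endothelial markers summed to 13.04–33.6, 19.9–66.2 and 51.9–182 CPM in the same order, and the 6 adipocyte markers to 10.6–58.6, 25.4–123 and 95.1–300.4 CPM, most of it Fabp4, which endothelial cells also express. The 5 erythroid markers summed to 9.36–32.4, 13.4–69.6 and 65.2–264 CPM, with Alas2 at 0 in all libraries. The part of these cells in the levels of Selenop and Gpx7 was not tested.

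The thioredoxin reductases differed from each other in their pattern. Txnrd1, the cytosolic enzyme, was at 398, 324, 364, 331, 310 and 332 CPM in HSL, 412, 271, 240, 314, 293 and 285 CPM in AP and 407, 281, 455, 723, 574 and 489 CPM in basal libraries, and every pair of populations overlapped. Basal libraries were the most variable, and samples 4 to 6 were the highest there. The log2 fold change was -0.51 ± 0.18 for HSL against basal, 0.18 ± 0.18 for HSL against AP and -0.69 ± 0.18 for AP against basal.

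Txnrd2, the mitochondrial enzyme, was lower in basal libraries. It averaged 27.9 ± 4.98 CPM in HSL, 29.0 ± 2.37 CPM in AP and 16.9 ± 2.49 CPM in basal libraries. All HSL libraries (20.7–35.4 CPM) and all AP libraries (26.7–32.2 CPM) lay above all basal libraries (13.3–19.8 CPM), and HSL and AP overlapped. The log2 fold change was 0.72 ± 0.13 for HSL against basal, -0.05 ± 0.13 for HSL against AP and 0.77 ± 0.13 for AP against basal.

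Over the 7 measured genes, HSL libraries were all above basal libraries for 3 and all below for 2; over all 16471 genes tested the shares were 16.8% and 20.1%, or 36.9% without overlap in either direction. For HSL against AP 1 gene was all higher and 2 all lower, where 9.56% and 11% of all genes were (20.6% in either direction). For AP against basal 1 was all higher and 1 all lower, where 11.5% and 14.4% of all genes were (25.9% in either direction). Since these contrasts chose the genes, the counts are given as a description.

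Per kilobase of exon, which allows genes to be compared, Gpx3 had the highest level in all 6 HSL libraries, in all AP libraries but that of sample 1, where Gpx1 was higher, and in 3 of the 6 basal libraries. In HSL libraries the levels were 14269 CPM per kb for Gpx3, 713 for Gpx1, 48.4 for Txnrd1, 33.7 for Gpx4, 19.7 for Selenop, 6.35 for Txnrd2 and 0.429 for Gpx7, and Gpx4 and Selenop overlapped in their libraries. In AP libraries the order was Gpx3 (2753 CPM per kb), Gpx1 (527), Selenop (114), Txnrd1 (42.7), Gpx4 (38.9), Txnrd2 (6.58) and Gpx7 (1.99), with overlap between Gpx3 and Gpx1 and between Txnrd1 and Gpx4. In basal libraries Gpx1 at 452 ± 54.97 and Gpx3 at 424 ± 329 CPM per kb could not be separated, and Selenop (143), Txnrd1 (68.9), Gpx4 (33.2), Gpx7 (28.1) and Txnrd2 (3.85) followed, with overlap between Gpx3 and Selenop, between Selenop and Txnrd1 and between Gpx4 and Gpx7. These orders use the counts of Gpx4 alone. Its pseudogene Gpx4-ps2 carries more counts, so the place of Gpx4 in each order is uncertain. Gpx3 made up 85.2 to 96.1% of the summed CPM of the measured genes, without Gpx4-ps2, in HSL libraries. The share was 38.04 to 87.1% in AP and 14.9 to 49.3% in basal libraries.

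**Figure D3:**
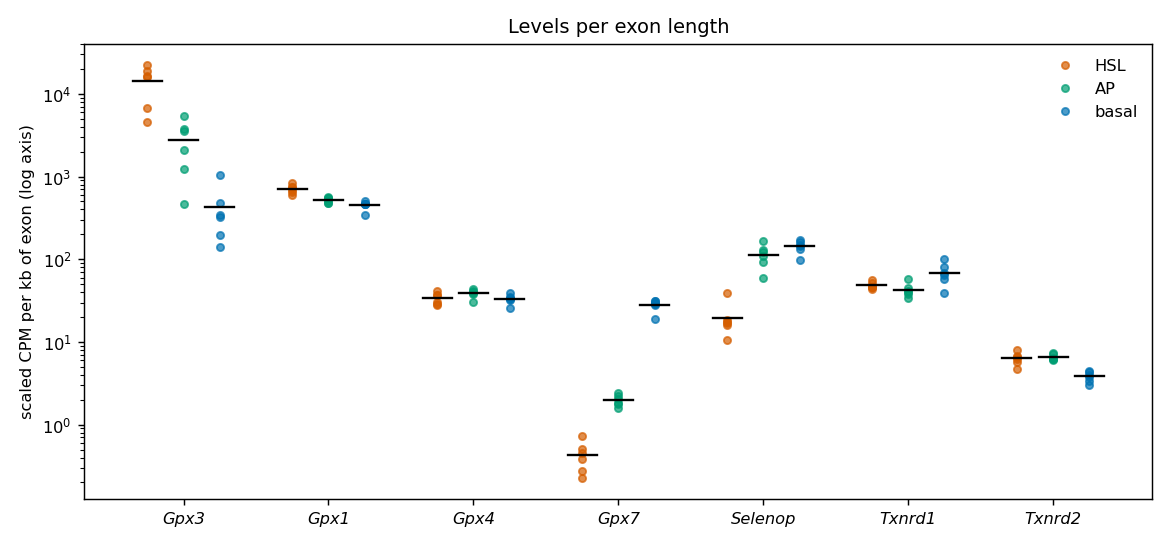
Scaled CPM per kilobase of exon (log axis) for the 7 measured genes, with a point per library for HSL, AP and basal and the mean as a black line. Gpx3 averages 14269 in HSL, 2753 in AP and 424 in basal libraries, and Gpx1 averages 713, 527 and 452.

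The rest of the selenium and redox system was then compared over 68 genes in 9 lists, of which 58 passed the filter; these genes are not members, and they were tested with edgeR's quasi-likelihood test adjusted over all 16471 genes. For HSL against basal, 23 of the 58 were higher and 18 lower in HSL (medians of log2: 0.24 for the 58 genes, -0.06 for all genes), where 27.8% of all genes were called higher and 30.6% lower (58.4% in either direction). For HSL against AP, 24 were higher and 14 lower (median 0.24, all genes -0.01), where 19.8% and 20.1% of all genes were (39.9% in either direction). For AP against basal, 17 were higher and 18 lower (median 0.03, all genes -0.001), where 21.5% and 23.1% of all genes were (44.7% in either direction). Without sample 1 the counts were 26 and 18, 28 and 16, and 19 and 18. Scaling by total counts gave 18 higher and 17 lower for HSL against AP. That scaling shifted the median of all genes to -0.18 for HSL against AP and to 0.14 for AP against basal, with 2235 genes higher and 4042 lower in HSL than AP (3256 and 3315 with TMM), and 4279 higher and 3147 lower in AP than basal.

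**Figure D4:**
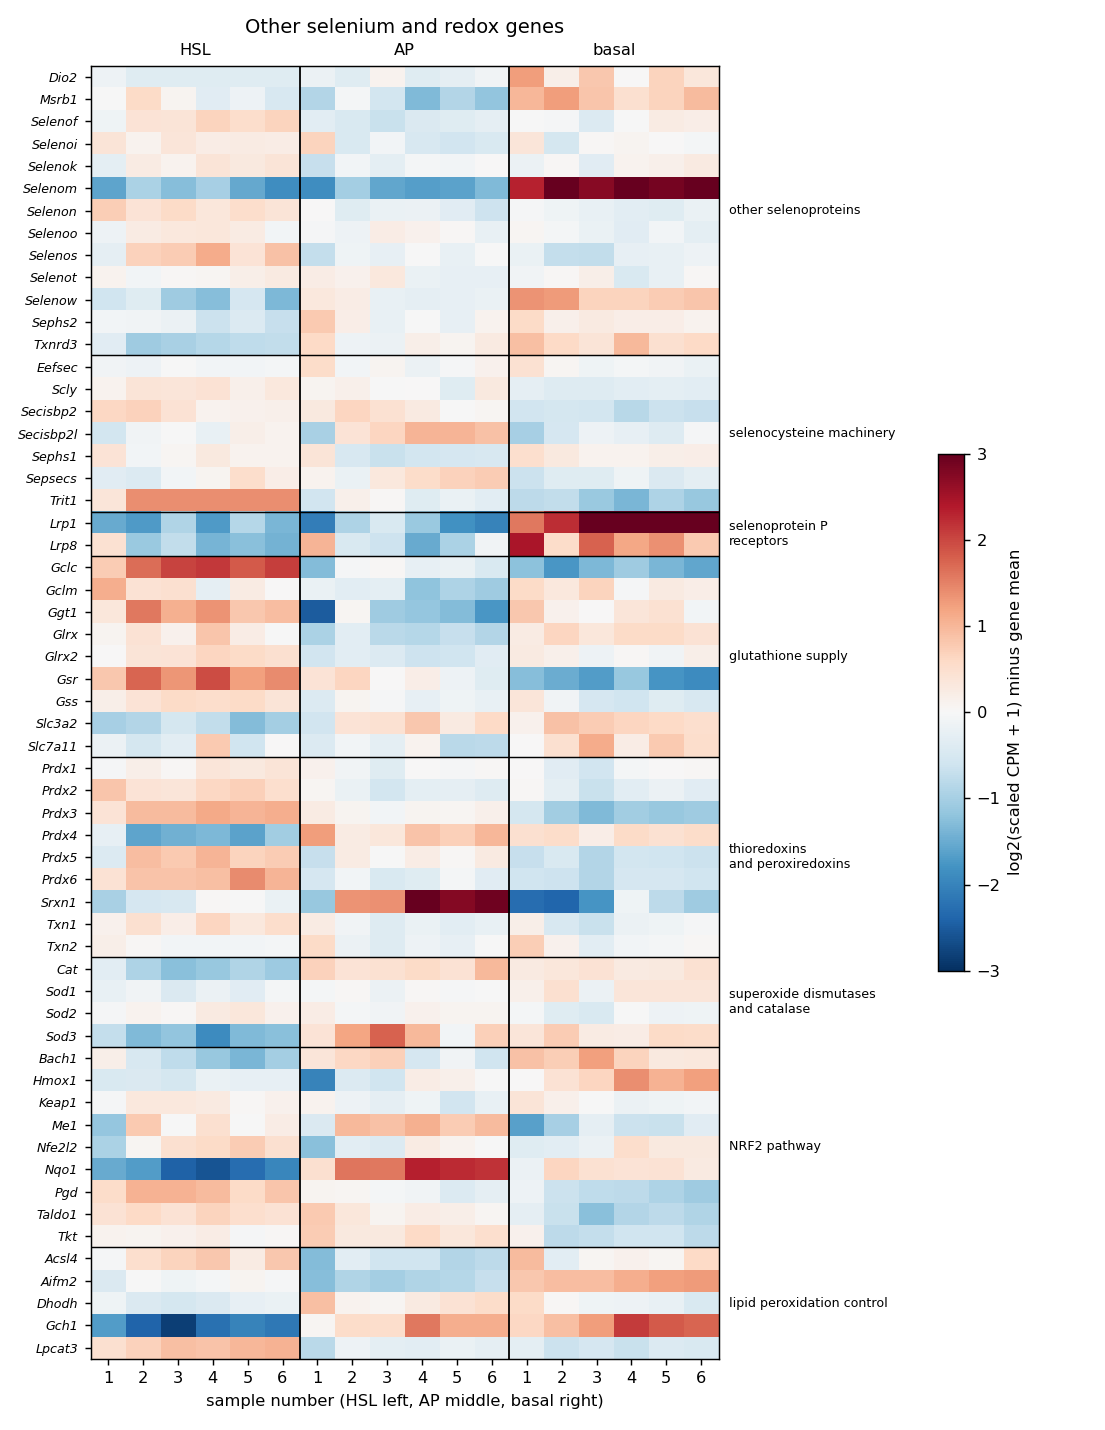
Log2(scaled CPM + 1) minus the mean over 18 libraries for each of the 58 tested genes, in rows by list, with HSL, AP and basal libraries in columns from left to right by sample number; colours end at -3 and 3. Selenom and Lrp1 are red in basal libraries, Gclc and Gsr in HSL libraries and Srxn1 and Nqo1 in AP libraries.

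Among other selenoproteins, HSL libraries had 4 of 13 tested genes higher (2 without sample 4) and 6 lower than basal libraries. Selenom, a thiol-disulphide oxidoreductase of the endoplasmic reticulum, had 9.56 ± 2.53 CPM in HSL, 8.52 ± 2.07 CPM in AP and 197 ± 43.4 CPM in basal libraries (log2 -4.37 ± 0.22 for HSL against basal, edgeR adjusted p = 3.78e-11; -4.53 ± 0.22 for AP against basal, adjusted p = 3.65e-11). Selenow and Txnrd3, the third thioredoxin reductase, were also lower in HSL than basal libraries (log2 -1.78 ± 0.20 and -1.48 ± 0.16, edgeR adjusted p = 3.84e-07 and 2.66e-07). Against AP, 5 of the 13 were higher in HSL and 3 lower, with Selenof at 600 ± 111 CPM in HSL and 332 ± 31.8 CPM in AP libraries (0.86 ± 0.14, edgeR adjusted p = 8.73e-05). In AP against basal none was higher and 6 were lower, among them Msrb1, a methionine sulfoxide reductase (-1.69 ± 0.22, edgeR adjusted p = 6.46e-06).

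Factors that make, insert or recycle selenocysteine were tested over 7 of 8 genes, since Pstk is fully overlapped and listed at 0. For HSL against basal 3 were higher and none lower, and for AP against basal 5 were higher and 1 lower. Scly, counted as higher in both, averaged only 0.760 CPM in HSL libraries, and other genes cover 99.3% of its exon bases. Sephs2, which takes part in selenocysteine synthesis, was counted among the other selenoproteins. It was lower in HSL than basal libraries (log2 -0.61 ± 0.17, edgeR adjusted p = 0.00512), and another gene covers 36.4% of its exon bases. Trit1, which modifies the anticodon loop of the selenocysteine transfer RNA, had 76.5 ± 17.5 CPM in HSL, 27.2 ± 5.28 CPM in AP and 15.1 ± 2.58 CPM in basal libraries (HSL against basal 2.34 ± 0.19, edgeR adjusted p = 6.67e-09; HSL against AP 1.49 ± 0.18, adjusted p = 4.75e-06). Secisbp2, which binds the SECIS stem-loop, was at 16.9 ± 3.27 CPM in HSL, 16.1 ± 2.88 CPM in AP and 7.92 ± 0.657 CPM in basal libraries, and was higher in HSL and in AP than in basal libraries (1.09 ± 0.15 and 1.02 ± 0.15, edgeR adjusted p = 5.67e-06 and 2.07e-05). Eefsec, the elongation factor for selenocysteine, was at 37.5 ± 1.14 CPM in HSL, 42.6 ± 8.36 CPM in AP and 40.3 ± 7.42 CPM in basal libraries and did not pass the test in any comparison.

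Receptors of selenoprotein P were lower in luminal cells. Both tested genes were lower in HSL and in AP than in basal libraries, and neither passed the test between HSL and AP; for AP against basal 1 of the pair was lost without sample 3 or without sample 5. Lrp1, a large endocytic receptor, had 17.4 ± 5.01 CPM in HSL, 17.78 ± 8.89 CPM in AP and 327 ± 124 CPM in basal libraries (HSL against basal -4.23 ± 0.37, edgeR adjusted p = 1.92e-08). For AP against basal the log2 fold change was -4.20 ± 0.36 (edgeR adjusted p = 3.37e-08). Pericyte marker sums, like Lrp1 and Selenom, were higher in all basal libraries (64.7–91.7 CPM) than in AP (13.1–24.1 CPM) and HSL libraries (3.29–16.0 CPM); the medians of the endothelial sums were 20.01 CPM in HSL, 31.6 CPM in AP and 139 CPM in basal libraries, those of the adipocyte sums 29.2, 43.4 and 172 CPM, those of the erythroid sums 20.6, 18.2 and 147 CPM and those of the leukocyte sums 11.6, 16.1 and 66.9 CPM. Fibroblast sums were lower in HSL libraries and overlapped between AP and basal libraries. Sums of the 5 basal markers were, like Lrp1 and Selenom, higher in all basal libraries (21680–36870 CPM) than in AP (85.6–270 CPM) and HSL libraries (29.8–153 CPM). The part of these cells in the levels of Lrp1 and Selenom was not tested. Gpx5 and Gpx6, the remaining peroxidases, did not pass the filter.

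A list of 9 genes of glutathione supply and use had 7 higher in HSL than in AP libraries and 1 lower. Some of them use glutathione or break it down. Gclm and Gss were among the 7, but other genes cover 90.1% and 97.7% of their exon bases, so their counts are uncertain. Gss averaged 5.76 CPM in HSL libraries. Gclc, the catalytic subunit of the rate-limiting enzyme of glutathione synthesis, had 753 ± 213 CPM in HSL, 173 ± 47.6 CPM in AP and 82.0 ± 13.7 CPM in basal libraries (HSL against basal 3.20 ± 0.24, edgeR adjusted p = 3.81e-09; HSL against AP 2.12 ± 0.23, adjusted p = 1.74e-06). Gsr, which regenerates reduced glutathione, had 533 ± 147, 215 ± 55.8 and 66.9 ± 14.2 CPM in the same order (HSL against basal 2.99 ± 0.22, edgeR adjusted p = 2.01e-09). Slc3a2, a heavy chain that the cystine transporter shares with other amino acid transporters, went the other way. It was at 346 ± 64.3 CPM in HSL, 845 ± 235 CPM in AP and 979 ± 164 CPM in basal libraries (HSL against AP -1.29 ± 0.19, edgeR adjusted p = 4.26e-05). Slc7a11, the light chain of the cystine transporter, was at only 0.931, 0.577 and 1.96 CPM in the same order. It did not pass the test for HSL against AP or basal (edgeR adjusted p = 0.348 and 0.106). For HSL against basal 4 of the 9 were higher and 1 lower (2 lower without sample 4 or with a block for sample number), and for AP against basal 2 were higher and 5 lower. Ggt1, which breaks down extracellular glutathione, did not pass the test in HSL against basal (0.74 ± 0.32, edgeR adjusted p = 0.053) and passed it without sample 1 (adjusted p = 0.0053).

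Thioredoxins and peroxiredoxins were higher in HSL than basal libraries for 6 of 9 and lower for 1. Prdx3, the mitochondrial peroxiredoxin, had 285 ± 45.7 CPM in HSL, 158 ± 11.8 CPM in AP and 73.4 ± 14.8 CPM in basal libraries (HSL against basal 1.96 ± 0.14, edgeR adjusted p = 1.16e-09). Prdx6, which reduces phospholipid peroxides, had 900 ± 198, 383 ± 50.9 and 305 ± 26.7 CPM in the same order, whereas Prdx4, the peroxiredoxin of the endoplasmic reticulum, had 47.5 ± 21.0, 181 ± 47.8 and 146 ± 13.6 CPM and was lower in HSL than basal libraries (-1.62 ± 0.23, edgeR adjusted p = 6.22e-06). Srxn1, sulfiredoxin, which reactivates oxidized peroxiredoxins, was highest in AP libraries at 562 ± 410 CPM, against 49.5 ± 31.6 CPM in basal libraries (3.51 ± 0.57, edgeR adjusted p = 6.51e-05), with HSL at 90.7 ± 22.6 CPM (HSL against AP -2.63 ± 0.55, adjusted p = 0.000963). Prdx1 did not pass the test for HSL against AP (0.26 ± 0.12, edgeR adjusted p = 0.111), and passed it with a block for sample number (adjusted p = 0.0233) and without sample 1 (adjusted p = 0.0399). Txnip is fully overlapped and listed at 0.

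Catalase (Cat), which breaks down hydrogen peroxide without selenium, was lower in HSL libraries, at 69.7 ± 18.3 CPM in HSL, 201 ± 32.5 CPM in AP and 168 ± 9.85 CPM in basal libraries (HSL against AP -1.53 ± 0.14, edgeR adjusted p = 4.07e-07; HSL against basal -1.27 ± 0.14, adjusted p = 5.42e-07). Of the 4 superoxide dismutases and catalase, 1 was higher and 3 were lower in HSL than basal libraries.

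The list of the NRF2 pathway, the main transcriptional response to oxidants, holds its negative regulators Bach1 and Keap1 beside other genes. Its counts therefore do not give the direction of that response. For HSL against basal 4 of 9 were higher and 3 lower, for HSL against AP 2 were higher and 3 lower, and for AP against basal 5 were higher and 1 lower (3 lower with a block for sample number). Bach1 was counted as lower in HSL than in basal and AP libraries (log2 -1.47 ± 0.30 and -0.89 ± 0.30, edgeR adjusted p = 0.000362 and 0.0223). Keap1 was counted as higher in HSL than AP libraries (0.38 ± 0.12, edgeR adjusted p = 0.0193), and another gene covers 32.4% of its exon bases. For HSL against AP the higher count was 4 without sample 1 and 1 without any other sample, and the lower count 1 without sample 2 or sample 5. Nqo1, a quinone reductase and widely used NRF2 target, had 9.01 ± 2.97 CPM in HSL, 146 ± 56.4 CPM in AP and 51.3 ± 9.27 CPM in basal libraries (HSL against AP -4.01 ± 0.30, edgeR adjusted p = 8.32e-08; HSL against basal -2.51 ± 0.28, adjusted p = 4.9e-07). Pgd, which makes NADPH, had 270 ± 40.4, 139 ± 18.6 and 92.2 ± 22.2 CPM in the same order (HSL against basal 1.55 ± 0.15, edgeR adjusted p = 7.29e-08). Nfe2l2, which encodes NRF2, had 309 ± 103 CPM in HSL, 213 ± 67.3 CPM in AP and 258 ± 67.0 CPM in basal libraries and did not pass the test (edgeR adjusted p = 0.122 for HSL against AP, 0.0046 with a block for sample number and 0.018 without sample 1; 0.423 for AP against basal, 0.0498 with the block).

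Genes that limit or feed lipid peroxidation also differed. Gch1, which makes tetrahydrobiopterin, had 13.8 ± 3.86 CPM in HSL, 124 ± 46.9 CPM in AP and 188 ± 71.1 CPM in basal libraries (HSL against basal -3.77 ± 0.31, edgeR adjusted p = 9.81e-09; HSL against AP -3.17 ± 0.30, adjusted p = 4.38e-07). For AP against basal Gch1 did not pass the test (-0.60 ± 0.28, edgeR adjusted p = 0.0866) and passed it with the block (adjusted p = 0.035). Lpcat3, which builds polyunsaturated phospholipids, had 332 ± 45.7, 148 ± 21.8 and 132 ± 13.4 CPM in the same order (HSL against basal 1.33 ± 0.12, edgeR adjusted p = 3.7e-08). Aifm2, which encodes the ferroptosis suppressor FSP1, was at 46.1 ± 5.41 CPM in HSL, 25.3 ± 3.47 CPM in AP and 103 ± 13.5 CPM in basal libraries, lowest in AP (AP against basal -2.02 ± 0.12, edgeR adjusted p = 3.29e-10). In HSL against AP, 3 of the list of 5 were higher and 2 lower. For HSL against basal 1 was higher (2 without sample 1) and 2 lower; for AP against basal 1 was higher (2 without sample 1, none without sample 2, 4, 5 or 6) and 2 lower.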

How the data were processed

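Gene counts were measured in 18 libraries of sorted mouse mammary cells. Per the labels' protocols, 2 ng of total RNA went into Smart-Seq v4 cDNA synthesis, and 150 pg of the product into Nextera XT. This chemistry keeps no strand information, so reads from genes that overlap on opposite strands cannot be told apart. The authors deposited whole-number counts for each gene, per the file headers, with RPKM values and gene widths beside them. The RPKM values that the authors deposited were not used, because 85.6% of the widths equal the genomic span, introns included; levels per kilobase here use merged exon lengths of GENCODE M21. The build is GRCm38 per the submitters' processing notes. Neither aligner nor counter is given in the sources used here. Of 52636 identifiers, 52489 matched GENCODE M21 and 147, with at most 0.00677% of counts, were left out.

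The deposited counts entered edgeR 4.0.16 (R 4.3.3), where filterByExpr with a minimum count of 10 kept 16471 genes. A robust quasi-likelihood model over all 18 libraries gave log2 fold changes and Benjamini-Hochberg adjusted p-values, called under 0.05. Its only factor was population, so the pairing by sample number described below entered only the alternative with a block. CPM are TMM-scaled, and log2 values for correlations used CPM + 1. The procedure was tested on simulated data with independent libraries. That simulation had no effect of sample number, so it cannot show how the missing block acts. Tables were joined with Python 3.11.15 and pandas 2.3.3.

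The members, lists and alternatives were chosen with earlier results of these data known. Named pathway genes were chosen per list and comparison. Up to 3 called genes with the largest absolute log2 fold change were taken at 10 CPM or more. The most abundant gene not called was added. Some genes that this rule allows are left out. Others are named for limits of the list counts, among them Gclm, Gss, Scly, Sephs2 and Keap1. Libraries of the same sample number deviated together from their population means (r across genes from 0.12 to 0.61 over 18 pairs), which is taken as pairing; the labels do not say that a number is an animal. Alternatives were RLE and total-count scaling, no filter, the sample number as a block, DESeq2 1.42.0, leaving out each sample number, and samples 1 to 3 or 4 to 6 alone, which form 2 runs of file identifiers.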

Additional observations from a re-analysis of the deposited data

Results flagged for a closer look

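Within each population the highest and lowest library of the 7 measured genes was checked against the rest, over 21 groups of 6 libraries; chance alone marks about 1 in 20, and 4 were marked. Gpx3 in basal libraries was highest in sample 4 at 1902 CPM, with the others at 256 to 873 CPM, and passed the limit only narrowly (0.6252). Gpx1 in basal libraries was lowest in sample 3 at 498.9 CPM, with the others at 663.5 to 734.3 CPM. Gpx7 in basal libraries was also lowest in sample 3, at 24.68 CPM, with the others at 35.64 to 40.62 CPM. Selenop in HSL libraries was highest in sample 1 at 109.9 CPM, with the others at 29.98 to 52.04 CPM. Among HSL libraries, that of sample 1 also had the highest leukocyte (73.0 CPM), fibroblast (111 CPM), adipocyte (58.6 CPM) and pericyte (16.0 CPM) marker sums. The same held for basal (153 CPM) and alveolar progenitor markers (549 CPM), but not for endothelial and erythroid markers. Its hormone-sensing marker sum was the lowest, at 2249 CPM. The part of these cells was not tested.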

How the results depend on the processing

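Of 2262 values of the pathway genes under the alternatives, 2062 kept their side of the threshold, 150 lost the call, 50 gained one and none turned round. With samples 1 to 3 only, the pathway genes called for HSL against basal fell to 14 higher; for HSL against AP to 8 higher and 5 lower; for AP against basal to 7 higher and 7 lower, in a fit with fewer samples. In the same samples Gpx7 was -1.92 and Selenop -1.91 (log2, HSL against AP), and Txnrd1 -0.091 (HSL against basal) and -0.27 (AP against basal). With samples 4 to 6 only, Gpx7 was -6.27 (HSL against basal) and -2.58 (HSL against AP), Selenop -3.23 (HSL against AP) and Txnrd1 -0.88 (HSL against basal). With total counts Gpx1 was 0.25 (HSL against AP). Leaving out each sample number in turn gave -2.49 to -2.05 for Gpx7 (HSL against AP). The cause of these shifts was not tested. With the sample number as a block the counts of called pathway genes were 25 and 20 (HSL against basal), 27 and 16 (HSL against AP) and 18 and 22 (AP against basal), higher first. Depth limits Gpx7 in HSL libraries most, at 12 to 53 counts; intervals from such counts cover counting error only.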
